A study of Arabidopsis thaliana with 30 samples.

Results

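The warmth response of wild-type Arabidopsis thaliana seedlings of the accession Col-0 was read from 6 of the 30 libraries of the series, 3 from seedlings moved to 27 °C and 3 from seedlings kept at 21 °C. Poly(A) RNA was taken from whole 4-d-old seedlings, so that cotyledons, hypocotyl and root were pooled in each library. In both groups the seeds had been kept for 5 d at 4 °C, and the seedlings grew in continuous red light of 50 µmol, first for 2 d at 21 °C in all libraries and then for 2 d at 27 or 21 °C, until harvest at 96 h. The other libraries came from 4 further genotypes at the same temperatures, of which 3 are used below for comparison: pif457, which lacks the growth factors PIF4, PIF5 and PIF7; MIM156, a transgenic line that expresses a target mimic of the microRNA miR156; and hyl1-2, a mutant of the microRNA processing factor HYL1. Of 25300 genes in the deposited table, the 21780 that reached 1 CPM (read counts per 1 M reads) in 3 or more of the 30 libraries were compared.

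The 6 Col-0 libraries held 19.6 to 23.9 M counted reads, and 3 reads of a gene corresponded to 0.110 to 0.177 scaled CPM. Scaled CPM are the deposited CPM divided by a median-of-ratios factor for each library, set over all 30 libraries, and they are the levels given throughout. Replicate 3 at 21 °C stood apart. Chloroplast-encoded genes took 2.04 to 2.42% of the reads at 27 °C, against 4.93%, 5.37% and, in replicate 3, 2.56% at 21 °C. The 8 root hair markers summed to 24.4 to 36.9 scaled CPM at 27 °C and to 15.6, 33.9 and 159 scaled CPM at 21 °C, with the highest value in replicate 3. The 7 root markers summed to 141 to 190 scaled CPM at 27 °C and to 63.5, 72.1 and 133 scaled CPM at 21 °C, and their part in the results was not tested. In RNA of whole seedlings, fewer cells of a type and less RNA per cell cannot be told apart. Values without replicate 3 at 21 °C are given beside some of the results that it changed, not all.

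Warmth a few degrees above the usual growth temperature makes Arabidopsis seedlings elongate, a response known as thermomorphogenesis. The red light receptor phytochrome B reverts to its inactive form faster in the warm, which releases the basic helix-loop-helix factors PIF4, PIF5 and PIF7. These bind promoters of genes for auxin synthesis and for cell elongation. Chaperone genes are switched on by a separate set of factors, the heat shock factors, when proteins unfold.

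A gene was called where the Benjamini-Hochberg adjusted p of limma was under 0.05 in the scaled values and also in the deposited totals, with the same sign. Adjusted p-values given below are the larger of both fits, and changes are on the log2(scaled CPM + 0.5) scale, 27 °C minus 21 °C, with the standard error of the fit. At 27 °C, 1860 genes were called higher (8.54% of those tested) and 1008 were called lower (4.63%). The median change of called genes was 0.78 among those higher and -0.93 among those lower, and the median over all genes was 0.02. With the deposited totals that median was 0.27, so that the demand on both fits bears more on falls than on rises. In the scaled fit alone 1860 genes were called higher and 2108 lower, and in the deposited totals alone 5458 higher and 1008 lower. Whether rises or falls were more numerous thus depended on the scaling. Counts of changes above or below 0 given below are those of the scaled values, and changes near 0 may have the other sign with the deposited totals. At least 4-fold changes were fewer, 81 higher and 22 lower. In 33.5% of all genes tested the 3 libraries at 27 °C did not overlap the 3 at 21 °C, and this holds for 1787 of the genes called higher and 1005 of those called lower. The genes of largest change and the leading called members of each list were chosen among genes without such overlap. Its absence in them, where stated below, follows from that choice.

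**Figure D1:**
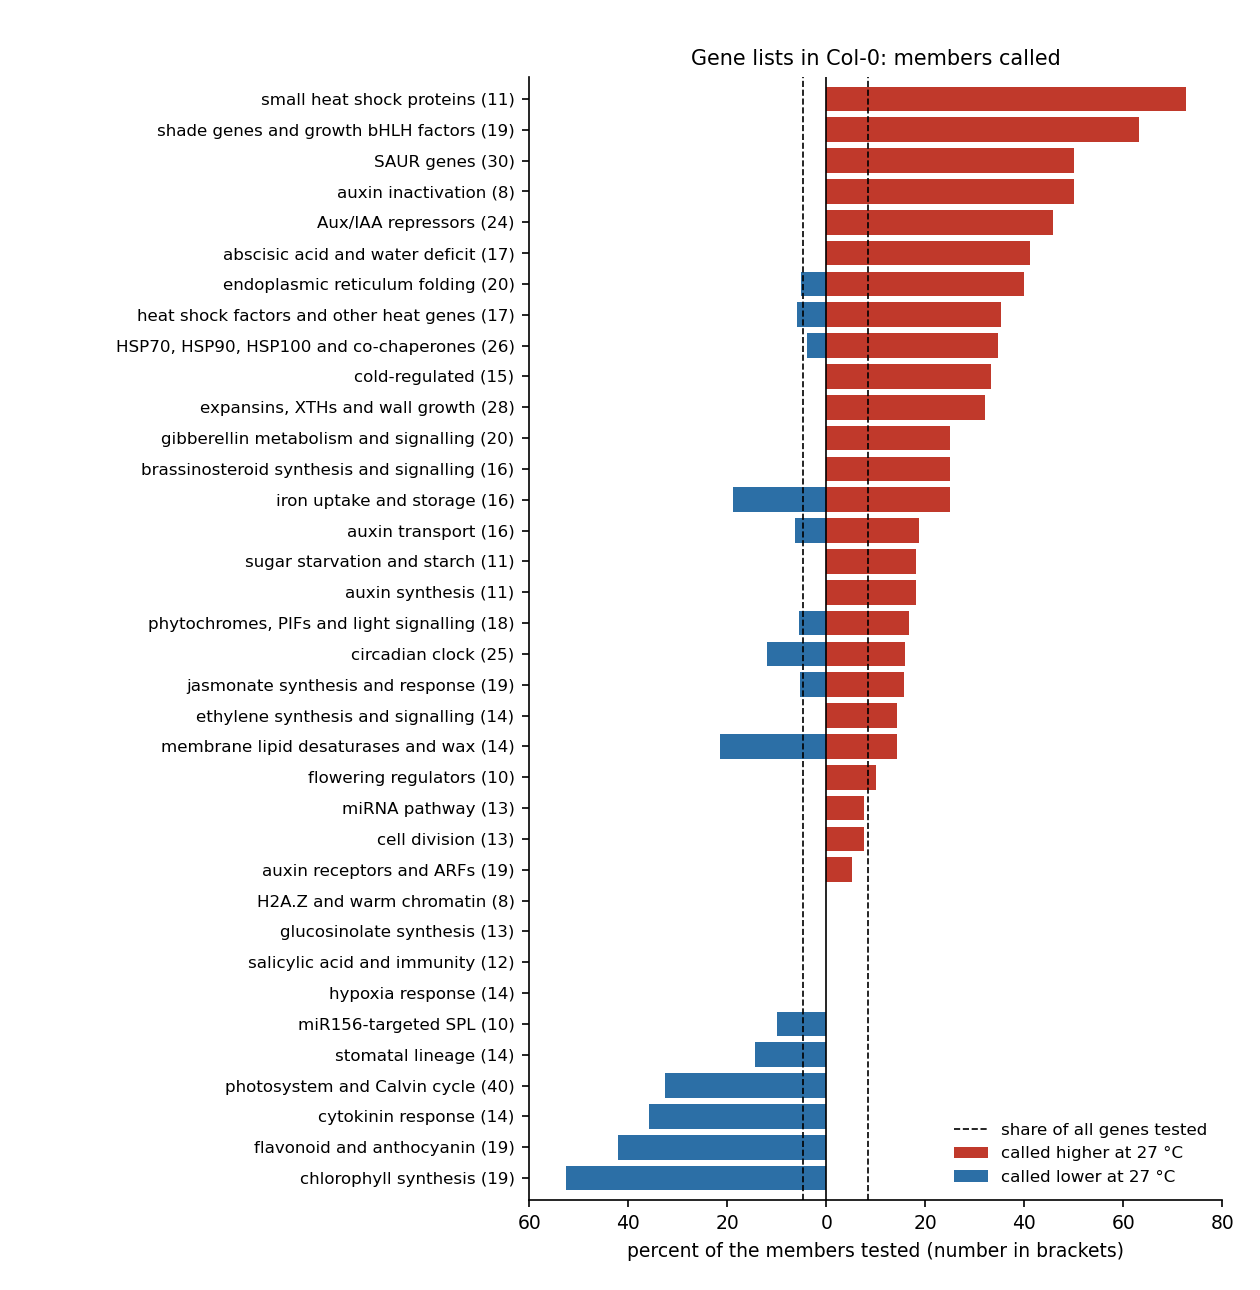
Share of the tested members of 36 gene lists called higher (right, red) or lower (left, blue) at 27 °C in Col-0, in percent of the number in brackets, with dashed lines at the shares over all genes tested, 8.54% and 4.63%. Small heat shock proteins lead the rises with 8 of 11 members, and chlorophyll synthesis leads the falls with 10 of 19. Members and lists were chosen with earlier results of these data known, so the shares and their order are descriptions only.

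Of the light signalling list, 3 of 18 members were called higher and 1 lower. Their median change was -0.20. PIF4 had 78.1, 103 and 77.2 scaled CPM at 27 °C, against 26.2, 48.1 and 20.7 at 21 °C, a change of 1.51 ± 0.24 (adjusted p = 5.67e-05). PHYA, the receptor of far-red light, had 198, 226 and 203 scaled CPM at 27 °C and 116, 139 and 108 at 21 °C, a rise of 0.79 ± 0.12 (adjusted p = 1.85e-05). The groups did not overlap in either gene. PHYB, the receptor that senses red light and temperature, stood at 65.5, 69.1 and 58.4 scaled CPM at 27 °C and 81.5, 76.7 and 75.4 at 21 °C, and this difference of -0.28 was not called and was 0.006 with the deposited totals. PIF5 (0.46 ± 0.20, adjusted p = 0.118) and PIF7 (-0.29 ± 0.25, adjusted p = 0.973) were not called, although PIF5 passed with the replicate block (adjusted p = 0.0377). HYH, a bZIP factor that promotes light responses beside HY5, fell to 5.66, 5.46 and 8.05 scaled CPM at 27 °C, against 19.02, 11.7 and 14.1 at 21 °C (-1.16 ± 0.21, adjusted p = 0.00316). The third rise, of PIF3 (0.53 ± 0.19, adjusted p = 0.0464), ended when any of 5 libraries was left out, all but replicate 1 at 21 °C, with adjusted p up to 0.235.

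Genes that respond to shade and small helix-loop-helix factors of growth formed a further list. Calls came to 12 rises and no fall among 19 members, whose median change was 0.91. HFR1, an atypical factor that restrains PIFs, had 3.31, 4.05 and 3.98 scaled CPM at 27 °C, against 0.772, 0.885 and 1.03 at 21 °C (1.62 ± 0.30, adjusted p = 0.000188). IBH1, which blocks growth-promoting helix-loop-helix factors, had 4.22, 5.63 and 7.33 scaled CPM at 27 °C and 2.04, 1.24 and 1.49 at 21 °C (1.56 ± 0.25, adjusted p = 2.47e-05). BNQ2 (also PRE2), a growth-promoting partner of such factors, rose by 1.59 ± 0.38 (adjusted p = 0.00303), and PRE5 by 1.398 ± 0.31 (adjusted p = 0.00153). The list thus held called rises both of genes known to restrain growth and of genes known to promote it. Changes below 0 were found in 4 members, none of them called, among them PRE3 at -0.54 and HBI1 at -0.24. The call of the homeodomain gene ATHB4 ended without replicate 2 or 3 at either temperature (adjusted p 0.0686 to 0.0926). Those of BEE1, HAT3, ATHB2 and PRE1 ended without any 1 of 4, 4, 4 and 3 libraries (adjusted p up to 0.11, 0.176, 0.161 and 0.104). PIL1 and BEE3 were not called (adjusted p = 0.065 and 0.0938) but passed without replicate 3 at 21 °C (0.0273 and 0.0224).

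**Figure D2:**
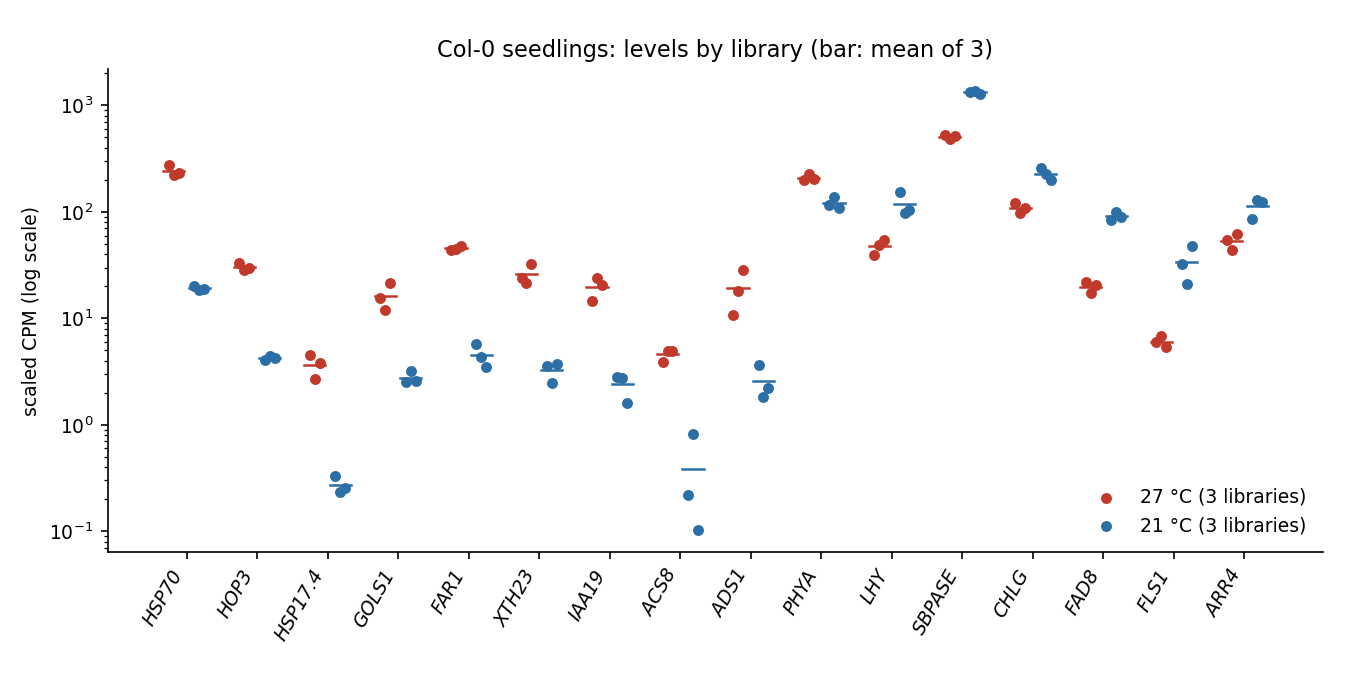
Levels of 16 named genes in each of the 6 Col-0 libraries, in scaled CPM on a log axis, with 27 °C (red) left of 21 °C (blue) and a bar at the mean of 3 libraries. From HSP70 to PHYA every 27 °C library lies above every 21 °C library, and from LHY to ARR4 every one lies below. The genes shown were chosen among called genes without overlap, so this separation follows from the choice.

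Small heat shock proteins, which bind unfolded proteins and keep them from clumping, were called higher in 8 of the 11 members tested and lower in none, and their median change was 1.99. The HSP20-like chaperone AT5G51440 had 14.1, 10.12 and 11.3 scaled CPM at 27 °C, against 0.662, 0.472 and 1.69 at 21 °C (3.18 ± 0.30, adjusted p = 1.59e-08). HSP17.4 had 4.48, 2.68 and 3.85 scaled CPM at 27 °C and 0.331, 0.236 and 0.257 at 21 °C (2.41 ± 0.35, adjusted p = 7.3e-06). Both groups were well apart in either gene. AT1G53540 stood at 3.196, 2.02 and 4.12 scaled CPM at 27 °C, against 0.110, 0 and 0 at 21 °C, where it held 2 reads in all. The call of HSP18.2 (AT5G59720) ended without replicate 3 at 21 °C or replicate 2 or 3 at 27 °C (adjusted p 0.0505 to 0.11). The HSP20-like genes AT2G29500, AT5G37670 and AT4G21870 were not called, at 0.58, 0.42 and -0.05. HSP21, HSP22.0 and AT1G52560 did not reach the minimum level and were not tested.

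Among the HSP70, HSP90 and HSP100 chaperones and their partners, 9 of 26 were called higher and 1 lower. Their median change was 0.16. HSP70 (AT3G12580), a cytosolic HSP70, had 275, 220 and 233 scaled CPM at 27 °C, against 20.3, 18.5 and 18.9 at 21 °C (3.62 ± 0.17, adjusted p = 6.97e-14), the smallest adjusted p of the named genes. HOP3, which hands client proteins between HSP70 and HSP90, had 32.9, 28.6 and 29.7 scaled CPM at 27 °C and 4.03, 4.43 and 4.21 at 21 °C (2.71 ± 0.21, adjusted p = 9.19e-10). ROF2, a peptidyl-prolyl isomerase that binds HSP90, had 25.1, 21.3 and 18.8 scaled CPM at 27 °C and 4.08, 2.42 and 5.13 at 21 °C (2.39 ± 0.23, adjusted p = 1.96e-08). The range of the 3 libraries within a temperature was narrow beside each of these changes. Related genes stayed near 0: HSP90.2 was at -0.20, HSP90.3 at 0.01 and HSP90.4 at 0.06, beside 3.24 ± 0.22 for HSP90.1. HSC70-1, a constitutive member of the HSP70 family, was at -0.20, and its partners HOP1 and HOP2 at -0.12 and -0.14. The chaperone called lower was cpHSC70-2, which works in the chloroplast (-1.04). HSP101, which pulls clumped proteins apart, rose by 1.17 ± 0.16 (adjusted p = 3.35e-06).

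Of heat shock factors and other heat genes, 6 of 17 were called higher and 1 lower. HSFA2, a factor that extends the heat response, had 2.68, 2.24 and 2.62 scaled CPM at 27 °C, against 0.607, 0.354 and 0.205 at 21 °C (1.79 ± 0.28, adjusted p = 3.01e-05). GOLS1, an enzyme of raffinose synthesis, had 15.5, 11.9 and 21.5 scaled CPM at 27 °C and 2.54, 3.19 and 2.56 at 21 °C (2.33 ± 0.21, adjusted p = 6.29e-09). The groups did not overlap in either. HSFA3 (1.104 ± 0.27), the coactivator MBF1C (0.99 ± 0.17), HSA32 (0.94 ± 0.22) and HSFB2A (0.75 ± 0.20) were the other rises. The constitutive factors HSFA1A, HSFA1B and HSFA1D lay at -0.18, 0.29 and -0.14 and were not called, and HSFA1E was called lower (-0.85 ± 0.20), a call that ended without replicate 1 or 3 at 21 °C or replicate 2 or 3 at 27 °C (adjusted p 0.0583 to 0.145). GOLS1, MBF1C, HOP3 and HSP17.4 each overlap a more abundant tested gene, as do ERDJ3A and, among iron genes, BHLH38 and BHLH101, and because the strand setting of the counting is not given, their reads may include some of that gene.

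Heat shock factors bind short inverted repeats, of which the pair GAANNTTC was searched in the 300 bases before each annotated gene start (TAIR10.1, RefSeq annotation). The pattern reads the same on both strands. It occurred in 11.3% of all 21615 windows and in 12.1% of those of genes called higher, and in 2 of 11 windows of small heat shock proteins, 4 of 26 of the larger chaperones and 4 of 17 of the heat shock factor list. The windows of HSP70 (AT3G12580), HOP3 and AT5G51440 held none. The windows of HSFA2 and HSP17.4 held 2 matches each, which start 88 and 33 bases before the gene start in HSFA2 and 99 and 18 bases before it in HSP17.4. They are shown because they are windows of rising heat genes that hold a pair of matches, with the matches in capitals and the window of HSP17.4 read from the reverse strand.
HSFA2 (chr2:11135324-11135623, forward strand): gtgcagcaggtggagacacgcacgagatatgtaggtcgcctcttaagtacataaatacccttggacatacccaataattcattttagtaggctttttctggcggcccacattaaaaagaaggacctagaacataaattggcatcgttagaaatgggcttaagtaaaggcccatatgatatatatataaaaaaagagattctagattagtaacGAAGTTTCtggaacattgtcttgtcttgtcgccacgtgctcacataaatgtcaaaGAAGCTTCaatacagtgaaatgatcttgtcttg
HSP17.4 (chr3:16984868-16985167, reverse strand): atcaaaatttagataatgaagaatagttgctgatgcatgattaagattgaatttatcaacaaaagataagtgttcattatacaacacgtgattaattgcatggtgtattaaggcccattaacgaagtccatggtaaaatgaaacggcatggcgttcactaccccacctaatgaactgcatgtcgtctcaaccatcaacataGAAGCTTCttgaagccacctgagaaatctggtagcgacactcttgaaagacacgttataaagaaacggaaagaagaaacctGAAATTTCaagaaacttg

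Folding in the endoplasmic reticulum was covered by 20 genes, of which 8 were called higher and 1 lower. BIP1, an HSP70 of this compartment, had 222, 202 and 158 scaled CPM at 27 °C and 140, 108 and 137 at 21 °C (0.59 ± 0.14, adjusted p = 0.00385). BZIP28, a membrane-held factor that is freed when proteins unfold there, rose by 0.47 ± 0.12 (adjusted p = 0.00619), and the co-chaperone ERDJ3B by 0.52 ± 0.12 (adjusted p = 0.00221). These rises were all smaller than 2-fold. BIP3, which is induced by strong unfolding stress, went the other way, with 0.147, 0.044 and 0.317 scaled CPM at 27 °C and 3.03, 1.65 and 1.49 at 21 °C (-1.91 ± 0.63, adjusted p = 0.0348). That call ended without any 1 of the 6 libraries (adjusted p 0.0505 to 0.12), and the levels at 27 °C lie around that of 3 reads. ERDJ3A (0.92 ± 0.25) lost its call without replicate 3 at 27 °C (adjusted p = 0.0657). The calls of IRE1A, SDF2, PDIL2-1 and CNX1 ended without any 1 of 4, 5, 3 and 3 libraries (adjusted p up to 0.206, 0.0788, 0.078 and 0.0833).

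Auxin genes were followed from synthesis to response. Of 11 synthesis genes, 2 flavin monooxygenases of the YUCCA family were called higher, YUC8 and YUC9. YUC8 had 6.61, 10.2 and 9.87 scaled CPM at 27 °C, against 3.25, 1.77 and 1.69 at 21 °C (1.80 ± 0.24, adjusted p = 2.53e-06), and YUC9 had 1.21, 1.94 and 1.58 at 27 °C and 0.441, 0.236 and 0.462 at 21 °C (1.24 ± 0.29, adjusted p = 0.00312). The groups did not overlap in either. The other YUCCA genes tested lay between -0.70 and 0.79, and the aminotransferases TAA1 and TAR2, which act one step earlier, at -0.07 and -0.62; none was called. Of 16 transport genes, 3 were called higher and 1 lower. WAG2, a kinase that acts on the PIN auxin exporters, had 9.77, 8.80 and 10.3 scaled CPM at 27 °C and 2.81, 0.885 and 2.92 at 21 °C (2.01 ± 0.35, adjusted p = 9.71e-05), and its relative WAG1 rose by 0.96 ± 0.26 (adjusted p = 0.00958). PIN5, an auxin carrier of internal membranes, was the fall (-1.33 ± 0.28, adjusted p = 0.00219).

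Auxin inactivation was called higher in 4 of 8 genes. GH3.3 had 14.1, 12.5 and 12.5 scaled CPM at 27 °C and 6.67, 4.07 and 5.49 at 21 °C (1.22 ± 0.26, adjusted p = 0.00108). GH3.5 (0.85 ± 0.19) and GH3.6 (0.50 ± 0.14), which like GH3.3 join auxin to amino acids, rose too, GH3.6 with a call that ended without replicate 3 at 27 °C (adjusted p = 0.0639). The remaining rise, of AT1G14130 (0.98 ± 0.30), lost its call without replicate 2 at 21 °C or replicate 1 or 2 at 27 °C (adjusted p 0.0583 to 0.235). Over 19 genes of auxin receptors and response factors the median change was -0.01. AFB1 (0.49 ± 0.15) was the only one called, and its call ended without replicate 2 or 3 at 21 °C or replicate 1 at 27 °C (adjusted p 0.0789 to 0.112).

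Of the Aux/IAA repressors, short-lived proteins whose genes auxin itself induces, 11 of 24 were called higher and none lower. IAA19 had 14.7, 24.0 and 20.6 scaled CPM at 27 °C, against 2.81, 2.77 and 1.59 at 21 °C (2.81 ± 0.32, adjusted p = 2.28e-07). IAA6 had 2.72, 3.48 and 3.67 scaled CPM at 27 °C and 0.386, 0.354 and 0 at 21 °C (2.38 ± 0.32, adjusted p = 3.22e-06). IAA7, measured at a much higher count, had 257, 288 and 289 scaled CPM at 27 °C and 188, 150 and 125 at 21 °C, a smaller rise of 0.86 ± 0.14 (adjusted p = 5.37e-05). The groups did not overlap in these genes. IAA29 (2.31 ± 0.29) and IAA34 (1.42 ± 0.28) rose as well, IAA34 at about 1 scaled CPM within the bounds of a more abundant overlapping gene. The calls of IAA17 and IAA4 ended without any 1 of 4 and 5 libraries (adjusted p up to 0.148 and 0.149). IAA5 stood at 1.102, 0.792 and 0.860 scaled CPM at 27 °C and 0.331, 0.177 and 0.0513 at 21 °C, which was not called (1.06 ± 0.40, adjusted p = 0.064) but passed with the replicate block (adjusted p = 0.0221).

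The SAUR genes, short auxin-induced transcripts whose proteins promote cell expansion, were called higher in 15 of 30 and lower in none. SAUR19 to SAUR24, near-identical neighbours on chromosome 5 between which uniquely mapped reads may be split unevenly, were all called, with changes of 1.33 to 2.57. SAUR21 had 8.78, 8.09 and 6.61 scaled CPM at 27 °C, against 1.88, 2.83 and 2.103 at 21 °C (1.59 ± 0.27, adjusted p = 6.16e-05). SAUR26 to SAUR29 were called too, at 1.06 to 1.56, SAUR26 with a call that ended without replicate 1 at 21 °C or replicate 3 at 27 °C (adjusted p = 0.0792 and 0.131) and SAUR29 with one that ended without replicate 2 or 3 at 21 °C or 1 or 3 at 27 °C (0.0616 to 0.102). Of SAUR61 to SAUR68, 3 of 8 were called, and only 1 without replicate 3 at 21 °C. These subgroups were formed after the values had been seen. SAUR41, SAUR72 and SAUR76 were at -0.42, -0.01 and -0.72 and were not called. The calls of SAUR32 and SAUR36 ended without any 1 of 2 libraries each (adjusted p up to 0.148 and 0.109).

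Auxin response factors bind TGTCTC (its reverse complement is GAGACA), and PIFs bind CACGTG and CATGTG (reverse complement CACATG). All were searched on both strands of the 300 bases before the gene start, where matches of different motifs shared bases in 0.37% of windows. TGTCTC stood in 13.1% of all windows, in 12.6% of those of genes called higher and 14.4% of those of genes called lower, and in 9 of 24 of the Aux/IAA genes (37.5%). CATGTG stood in 13% of all windows, in 15.2% of those of genes called higher, in 25.9% of those of genes at least 4-fold higher (21 of 81), and in 19 of 30 SAUR windows (63.3%), 3 of them among SAUR19 to SAUR24. CACGTG stood in 7.62% of all windows in 10% of those of genes called higher and in none of 30 SAUR windows. Shown are the window of IAA19, with 3 matches of TGTCTC that start 184, 145 and 128 bases before the gene, that of SAUR19, with 2 matches of CATGTG at 189 and 123 bases, and that of the peroxidase AT1G49570, with 2 at 166 and 158 bases. Capitals mark these matches. The first of SAUR19 shares a base with 1 of 2 matches of GAANNTTC in that window.
IAA19 (chr3:5263701-5264000, forward strand): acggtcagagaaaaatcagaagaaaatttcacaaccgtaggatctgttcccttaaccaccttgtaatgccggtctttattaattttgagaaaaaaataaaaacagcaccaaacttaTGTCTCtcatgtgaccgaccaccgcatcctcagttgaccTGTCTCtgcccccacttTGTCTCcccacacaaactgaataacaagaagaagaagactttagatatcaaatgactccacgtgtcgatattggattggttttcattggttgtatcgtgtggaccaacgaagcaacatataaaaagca
SAUR19 (chr5:5963406-5963705, reverse strand): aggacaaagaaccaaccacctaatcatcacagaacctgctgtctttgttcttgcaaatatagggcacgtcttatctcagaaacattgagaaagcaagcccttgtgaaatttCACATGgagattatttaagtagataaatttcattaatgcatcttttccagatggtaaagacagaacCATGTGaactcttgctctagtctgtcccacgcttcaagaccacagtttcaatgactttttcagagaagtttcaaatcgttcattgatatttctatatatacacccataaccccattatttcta
AT1G49570 (chr1:18346658-18346957, forward strand): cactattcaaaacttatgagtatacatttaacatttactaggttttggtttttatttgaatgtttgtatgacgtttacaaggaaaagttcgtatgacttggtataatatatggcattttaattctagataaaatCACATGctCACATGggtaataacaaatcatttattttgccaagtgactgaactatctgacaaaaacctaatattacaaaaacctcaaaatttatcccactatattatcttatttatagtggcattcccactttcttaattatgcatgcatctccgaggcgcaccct

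Brassinosteroid and gibberellin genes were called higher in part. Of 16 brassinosteroid genes, 4 were called higher, all by less than 2-fold. BAS1, which inactivates brassinosteroids, had 13.4, 18.1 and 18.3 scaled CPM at 27 °C and 9.21, 10.2 and 13.0 at 21 °C (0.60 ± 0.15, adjusted p = 0.00637). The receptor gene BRI1 rose by 0.46 ± 0.11, a call that ended without replicate 3 at 21 °C (adjusted p = 0.0581), and the calls of the synthesis genes ROT3 and BR6OX1 ended without replicate 2 at either temperature, that of BR6OX1 also without replicate 1 or 3 at 21 °C (adjusted p up to 0.279). Of 20 gibberellin genes, 5 were called higher, 3 of them DELLA repressors of growth: GAI had 76.9, 89.7 and 98.2 scaled CPM at 27 °C and 59.1, 63.1 and 45.8 at 21 °C (0.66 ± 0.12, adjusted p = 0.000153), RGL1 rose by 0.88 ± 0.18 and RGL3 by 0.98 ± 0.22. The DELLA genes RGA (0.16) and RGL2 (0.34) were not called. GASA14, a gibberellin-induced secreted peptide, had 204, 167 and 197 scaled CPM at 27 °C and 94.4, 97.8 and 59.97 at 21 °C (1.195 ± 0.22, adjusted p = 0.000288).

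Of 28 genes of wall growth, 9 were called higher and none lower, among them members of the XTH and expansin families. XTH23, a xyloglucan endotransglucosylase, had 24.1, 21.4 and 32.2 scaled CPM at 27 °C, against 3.58, 2.48 and 3.69 at 21 °C (2.81 ± 0.35, adjusted p = 1.94e-06). XTH24 had 391, 448 and 682 scaled CPM at 27 °C and 187, 192 and 156 at 21 °C (1.47 ± 0.23, adjusted p = 3.38e-05). XTH22 rose by 1.83 ± 0.43 and XTH17 by 3.31 ± 0.54, and XTH30 by 1.06 ± 0.29 with a call that ended without replicate 1 at 21 °C or replicate 3 at 27 °C (adjusted p = 0.0987 and 0.0556). XTH18 was at 27.0, 26.4 and 31.6 scaled CPM at 27 °C and 5.51, 6.37 and 23.4 at 21 °C, and was called only without replicate 3 at 21 °C (adjusted p = 0.0621 with it and 0.00948 without it). The expansins EXPA3 (0.89 ± 0.28) and EXPA8 (0.95 ± 0.27) were called too. Both calls ended without replicate 3 at 21 °C or replicate 2 or 3 at 27 °C, that of EXPA3 also without replicate 2 at 21 °C or 1 at 27 °C (adjusted p up to 0.177 and 0.111). The cellulose synthase genes CESA1, CESA3 and CESA6 lay at -0.02, 0.03 and 0.11, and the proton pump genes AHA1 and AHA2 at -0.13 and -0.01.

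Among the 12 largest rises at 5 scaled CPM or more, chaperones (HSP70, HSP90.1 and AT5G51440) stood beside genes of other kinds. M17, a late embryogenesis protein, had 12.01, 15.1 and 4.30 scaled CPM at 27 °C and 0.772, 0.177 and 0 at 21 °C (3.70 ± 0.81, adjusted p = 0.00227). AT5G44440, of the berberine bridge enzyme family, had 22.4, 58.1 and 37.9 scaled CPM at 27 °C and 2.702, 5.84 and 0.667 at 21 °C (3.69 ± 0.51, adjusted p = 1.42e-05). The peroxidase AT1G49570 had 17.78, 15.1 and 24.4 scaled CPM at 27 °C and 0.662, 0.944 and 2.72 at 21 °C (3.45 ± 0.46, adjusted p = 4.68e-06). Without replicate 3 at 21 °C the change of AT5G44440 was 3.05 (adjusted p = 8.96e-05). Replicates of M17 and AT5G44440 spread over more than 2-fold within a temperature, and the groups did not overlap. FAR1 (AT5G22500), fatty acid reductase 1, which makes alcohols of suberin and shares its symbol with a light signalling factor, had 43.9, 45.0 and 48.2 scaled CPM at 27 °C and 5.68, 4.31 and 3.49 at 21 °C (3.23 ± 0.23, adjusted p = 1.02e-10). AT5G22505, an uncharacterized gene that overlaps FAR1, rose by 3.18 ± 0.30, and reads of the pair may have been assigned to either. The others were XTH17, the glycosyltransferase AT5G37950 (3.13 ± 0.34), the PLAC8 family gene AT5G35525 (2.96 ± 0.33) and the tetratricopeptide repeat gene AT1G80130 (2.95 ± 0.47).

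Photosynthesis genes were called lower in part. Of 40 nuclear genes of the photosystems and the Calvin cycle, 13 were called lower and none higher, and they divided by function. All 9 Calvin cycle genes were called lower, by 0.96 to 1.52 on the log2 scale. RBCS2B, a small subunit of the carbon-fixing enzyme Rubisco, had 3196, 3185 and 3710 scaled CPM at 27 °C, against 8846, 9208 and 8712 at 21 °C (-1.41 ± 0.15, adjusted p = 1.41e-07). SBPASE, a phosphatase of the cycle, had 529, 483 and 520 scaled CPM at 27 °C and 1349, 1368 and 1268 at 21 °C (-1.38 ± 0.12, adjusted p = 3.1e-08). GAPA, a subunit of its dehydrogenase, had 1241, 1317 and 1858 scaled CPM at 27 °C and 3322, 4520 and 3705 at 21 °C (-1.398 ± 0.19, adjusted p = 5.46e-06). The groups were far apart in each of these, and all 9 calls held without replicate 3 at 21 °C.

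The 17 antenna proteins of the light-harvesting complexes had a median change of -0.05, with 8 of them above 0, and none was called. The range among them was wide: LHCB1.5 was at 0.44 ± 0.27 and LHCB1.3 at -0.76 ± 0.25 (adjusted p = 0.0805). Of the 14 photosystem subunits and plastocyanins, 4 were called lower (PSBP-1, PSBQA, PSAF and the plastocyanin PETE2). All 14 had changes below 0 in the scaled values, with a median of -0.46 and the highest at -0.03. The calls of PSBP-1, PSBQA and PSAF ended without at least 1 other library (adjusted p up to 0.0811, 0.0742 and 0.201). Without replicate 3 at 21 °C, 2 antenna and 5 photosystem genes were called lower. The division of the list into these subgroups was made after its values had been seen. Summed over the list, the level was lower in that replicate than in the other 21 °C libraries, and its part in the antenna values was not tested.

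**Figure D3:**
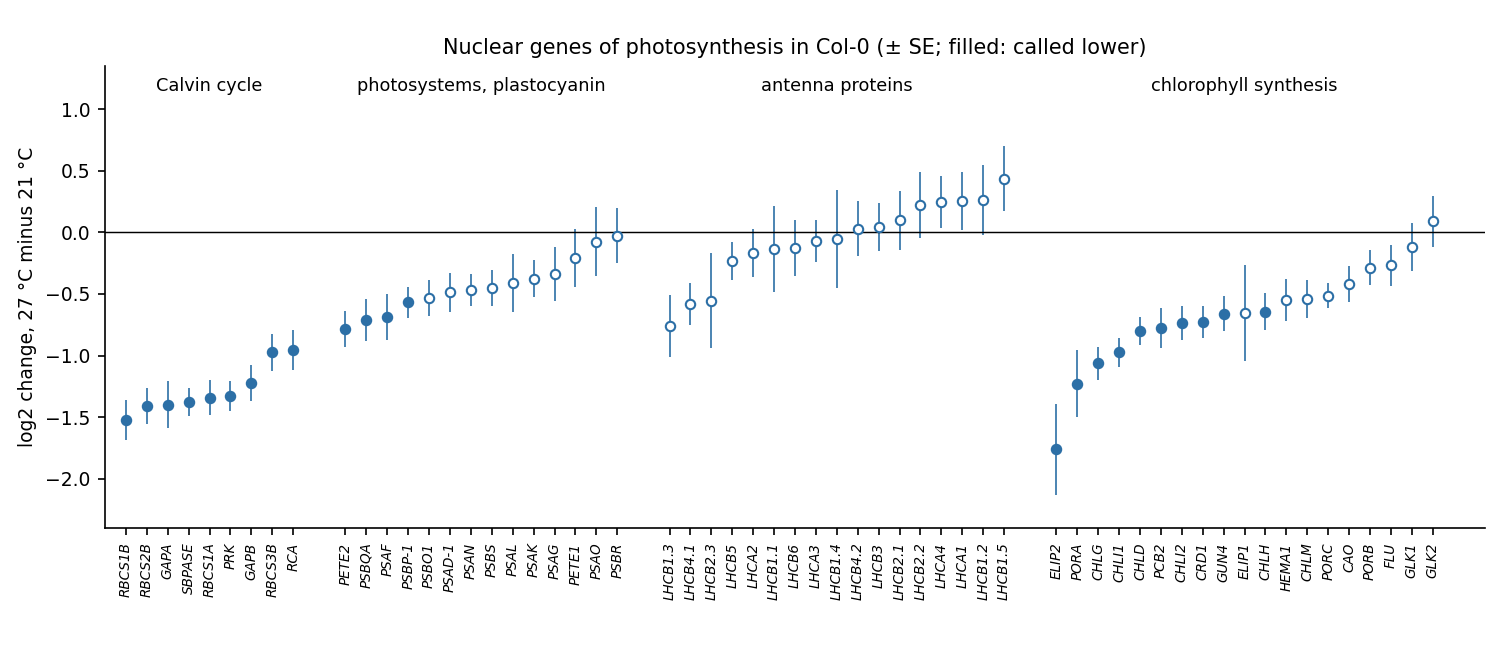
Change at 27 °C minus 21 °C in Col-0 (log2 scale, ± SE) of 40 nuclear genes of photosynthesis and 19 of chlorophyll synthesis, sorted within each group, with filled points for those called lower. All 9 Calvin cycle genes are filled, and none of the 17 antenna genes is.

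Of 19 chlorophyll genes, 10 were called lower and none higher. CHLG, which adds the phytol tail to chlorophyll, had 122, 98.7 and 108 scaled CPM at 27 °C, against 259, 229 and 200 at 21 °C (-1.06 ± 0.13, adjusted p = 1.08e-05). CHLI1 and CHLD, subunits of the magnesium chelatase, fell by 0.98 and 0.80 on the log2 scale. PORA, a protochlorophyllide reductase of etiolated seedlings, had 0.551, 0.704 and 0.633 scaled CPM at 27 °C and 2.81, 2.71 and 1.23 at 21 °C (-1.23 ± 0.27, adjusted p = 0.00327). These groups did not overlap, and 18 of the 19 changes of the list were below 0. ELIP2, a stress-induced relative of the antenna proteins, fell furthest (-1.76 ± 0.37, adjusted p = 0.00212), with ELIP1 at -0.66 and not called. The factors GLK1 and GLK2, which promote these genes, lay at -0.12 and 0.09. Without replicate 3 at 21 °C, 7 of the 19 were called. The calls of CHLH, CHLI2, PCB2 and GUN4 each ended without more than 1 of the libraries in turn (adjusted p up to 0.0887, 0.118, 0.126 and 0.138).

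Transcripts encoded in the chloroplast itself also fell, with less certainty. Of 115 tested, 18 were called lower and none higher, all 115 changes were below 0 and their median was -1.38. ATCG00400 had 5.80, 5.59 and 4.03 scaled CPM at 27 °C and 22.1, 71.6 and 21.2 at 21 °C (-2.56 ± 0.63, adjusted p = 0.00954), and ATCG00340 had 252, 245 and 200 at 27 °C and 833, 2620 and 554 at 21 °C (-2.202 ± 0.67, adjusted p = 0.0328). In both, replicate 2 at 21 °C was the highest by far. Without that library the calls of ATCG00400 (adjusted p = 0.0663), ATCG00340 (0.188), ATCG00040 (0.156), ATCG00330 (0.225), ATCG00350 (0.186), ATCG00720 (0.17) and ATCG00730 (0.229), the 7 chloroplast genes among the 12 largest falls, all ended. Those calls except that of ATCG00400 also ended without replicate 2 or 3 at 27 °C. Poly(A) selection recovers such transcripts only in part, and the share recovered in each library was not tested. With nuclear genes alone in the fit, 1863 genes were called higher and 990 lower.

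The other falls of that size were nuclear. AT1G29720, a leucine-rich repeat receptor kinase, had 0.955, 1.01 and 0.226 scaled CPM at 27 °C, against 14.3, 14.2 and 9.49 at 21 °C (-3.47 ± 0.33, adjusted p = 9.91e-08). OEP6, a protein of the outer chloroplast envelope, had 98.96, 94.7 and 87.2 scaled CPM at 27 °C and 551, 399 and 432 at 21 °C (-2.28 ± 0.18, adjusted p = 6.82e-09). AT1G69140, which has no description in the annotation used, had 0.882, 0.924 and 1.22 scaled CPM at 27 °C and 3.09, 9.97 and 7.18 at 21 °C (-2.14 ± 0.46, adjusted p = 0.00237). No library at 27 °C reached the lowest at 21 °C in these 3 genes.

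Flavonoid synthesis makes ultraviolet-absorbing pigments from phenylalanine, and of its 19 genes 8 were called lower but none higher. FLS1, flavonol synthase, had 5.95, 6.77 and 5.34 scaled CPM at 27 °C and 32.6, 20.9 and 48.2 at 21 °C (-2.33 ± 0.33, adjusted p = 0.000115). 4CL3, a coenzyme A ligase before the branch to flavonoids, had 6.13, 5.24 and 4.34 scaled CPM at 27 °C and 15.66, 17.41 and 30.8 at 21 °C (-1.87 ± 0.22, adjusted p = 1.06e-05). CHIL, which aids chalcone synthase, had 11.2, 16.4 and 11.9 scaled CPM at 27 °C and 40.7, 22.4 and 44.3 at 21 °C (-1.37 ± 0.21, adjusted p = 0.000505). Replicate 3 was the highest of the 21 °C libraries in all 3 genes, and without it the falls were -2.04, -1.58 and -1.19 and were still called. Of the 8 called genes, 5 were called without it, and PAL1 (-1.13 ± 0.24, 0.145), CHI (0.0775) and UGT78D2 (0.0971) were not. The regulators MYB12, MYB111 and MYBL2 lay at -0.39, -0.78 and 0.26 and were not called, and the reads of F3H (-1.97 ± 0.39) equal those of an overlapping gene.

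Fatty acid desaturases are known to set how fluid membranes are. FAD8, a plastid desaturase whose product makes trienoic lipids, had 21.8, 17.3 and 20.4 scaled CPM at 27 °C, against 84.4, 99.5 and 89.2 at 21 °C (-2.17 ± 0.15, adjusted p = 5.23e-10). Its close relative FAD7 had 187, 158 and 175 scaled CPM at 27 °C and 309, 390 and 322 at 21 °C (-0.97 ± 0.11, adjusted p = 9.59e-05), and FAD5, which desaturates palmitate in the plastid, fell by 0.87 ± 0.16 (adjusted p = 0.000831). FAD3, the desaturase that makes trienoic lipids outside the plastid, was at -0.27 and not called. ADS1, a desaturase of another family, went up, with 10.8, 18.21 and 28.7 scaled CPM at 27 °C and 3.64, 1.83 and 2.21 at 21 °C (2.63 ± 0.35, adjusted p = 5.21e-06). The groups did not overlap in any of the 4 called genes. WSD1, a wax ester synthase, had 0.441, 1.06 and 0.633 scaled CPM at 27 °C and no read at 21 °C, at least 12.9-fold higher against 3 reads over the group.

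Clock genes moved in both directions in continuous light, with 4 of 25 called higher and 3 lower. LHY, a morning repressor, had 39.5, 48.8 and 54.2 scaled CPM at 27 °C and 154, 98.6 and 103 at 21 °C (-1.29 ± 0.21, adjusted p = 0.000506), while its partner CCA1 was not called (-0.48 ± 0.24, adjusted p = 0.51). PRR7, which represses both, had 54.0, 61.8 and 44.4 scaled CPM at 27 °C and 24.5, 29.7 and 15.3 at 21 °C (1.22 ± 0.30, adjusted p = 0.00522). RVE2 fell by 1.13 on the log2 scale and RVE7, of the same family of MYB factors, rose by 1.14 ± 0.24 (adjusted p = 0.0011). LNK1 (0.98 ± 0.21) and GI (0.74 ± 0.16) rose, and the evening genes TOC1 and ELF3, at -0.54 and -0.50, were not called. The evening element AAAATATCT stood in 6 of 25 windows of the list (24%) and in 2.73% of all windows. Of 10 flowering regulators, only the repressor SVP was called (0.47 ± 0.16), and its call ended without any of 5 libraries, all but replicate 1 at 27 °C (adjusted p up to 0.191).

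Abscisic acid, the hormone of water deficit, and cold-regulated genes were called higher in part. Of 17 abscisic acid genes, 7 were called higher and none lower. HAI1, a phosphatase that dampens the signal, had 2.68, 4.49 and 4.84 scaled CPM at 27 °C and 0.551, 0.826 and 0 at 21 °C (2.31 ± 0.43, adjusted p = 0.000282). RAB18, a dehydrin, had 19.3, 39.99 and 25.2 scaled CPM at 27 °C and 5.35, 4.96 and 4.87 at 21 °C (2.303 ± 0.59, adjusted p = 0.00797). ABF3, a bZIP factor of the response, rose by 0.86 ± 0.16 (adjusted p = 0.00026). No library overlapped between temperatures in these genes. ABI1 and PP2CA, phosphatases like HAI1, rose by less than 2-fold (0.46 and 0.64), with calls that ended without replicate 1 at 21 °C or replicate 2 at 27 °C, for ABI1 also without replicate 2 at 21 °C or 3 at 27 °C (adjusted p up to 0.186 and 0.106), while the synthesis gene NCED3 (0.76) was not called. RD29B (1.46 ± 0.47) lost its call without replicate 1 at 21 °C or any library at 27 °C (adjusted p up to 0.152).

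Of 15 cold-regulated genes, 5 were called higher at 27 °C and none lower. The dehydrin ERD14, of the water deficit list, had 185, 225 and 221 scaled CPM at 27 °C and 84.4, 86.5 and 138 at 21 °C (1.06 ± 0.17, adjusted p = 4.75e-05). Its relatives of the cold list, COR47 (0.77 ± 0.21) and ERD10 (0.91 ± 0.26), were called too, and CBF2, a master factor of cold acclimation, stood at 1.25, 1.85 and 1.13 scaled CPM at 27 °C and 0.331, 0.177 and 0.821 at 21 °C (1.06 ± 0.27, adjusted p = 0.00647). COR15B (-0.23), RD29A (-0.17) and KIN1 (-0.16), which the CBF factors are known to induce, were not called. Each of the 5 calls ended without at least 1 library: COR47 without replicate 1 at 21 °C or 2 at 27 °C (adjusted p = 0.0759 and 0.059), ERD10 without these or replicate 2 at 21 °C (up to 0.0939), and CBF2 without replicate 2 at 21 °C (0.055). Those of ZAT12 and GRP8 ended without any of 5 libraries, ZAT12 keeping its call only without replicate 3 and GRP8 only without replicate 1 at 21 °C (up to 0.334 and 0.156).

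Cytokinin response genes fell in part. Of 14, 5 were called lower and none higher, with a median of -0.53. ARR4, a type-A response regulator, had 54.2, 44.2 and 61.4 scaled CPM at 27 °C, against 86.1, 131 and 123 at 21 °C (-1.07 ± 0.20, adjusted p = 0.00368). IPT3, a synthesis gene, had 4.19, 3.96 and 6.92 scaled CPM at 27 °C and 12.2, 9.62 and 10.11 at 21 °C (-1.04 ± 0.21, adjusted p = 0.00614). ARR7 (-1.22 ± 0.27), ARR9 (-0.92 ± 0.17) and the receptor AHK4 (-1.07 ± 0.25) fell, with calls that ended without replicate 2 at 27 °C (adjusted p = 0.0802, 0.0874 and 0.103) and, for ARR9 and AHK4, without replicate 3 at 21 °C (0.12 and 0.227); AHK4 kept its call only without replicate 1 at 21 °C. ARR5 (0.39) and ARR6 (-0.35) were not called.

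Ethylene and jasmonate genes gave single large rises. ACS8, an enzyme of ethylene synthesis, had 3.89, 4.93 and 4.93 scaled CPM at 27 °C and 0.221, 0.826 and 0.103 at 21 °C (2.60 ± 0.39, adjusted p = 1.49e-05), 1 of 2 called among 14. The other was EIN3 (0.29 ± 0.10), whose call ended without any library but replicate 2 at 21 °C (adjusted p up to 0.162). VSP2, a storage protein induced by jasmonate, had 13.1, 29.2 and 14.9 scaled CPM at 27 °C and 3.69, 3.95 and 2.15 at 21 °C (2.32 ± 0.33, adjusted p = 6.69e-06). Of 19 jasmonate genes, 3 were called higher and 1 lower, and their median was 0.08. The fall was that of AOC2, a synthesis enzyme, with 29.8, 22.8 and 19.1 scaled CPM at 27 °C and 51.8, 42.5 and 51.6 at 21 °C (-1.03 ± 0.19, adjusted p = 0.0118), a call that ended without replicate 3 at either temperature (adjusted p up to 0.0808). The synthesis gene OPR3 rose by 0.42 ± 0.14, with a call that ended without any library but replicate 2 at 21 °C (up to 0.114), and the reads of the factor MYC2 (0.74 ± 0.17) nearly equal those of an overlapping gene. Of 12 salicylic acid genes and 14 hypoxia genes none was called. The immune receptor gene SNC1, the most abundant of the first list, was at -0.58 ± 0.14 in the scaled values (adjusted p = 0.00243 in that limma fit). With the deposited totals it was at -0.30 (adjusted p = 0.12).

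Of 16 iron genes, 4 were called higher and 3 lower. Ferritin FER3, which stores iron, had 39.96, 33.3 and 36.4 scaled CPM at 27 °C and 83.4, 109 and 89.7 at 21 °C (-1.35 ± 0.15, adjusted p = 8.39e-06), and FER4 (-0.75) was called lower with it, though not without replicate 2 at 21 °C or replicate 2 or 3 at 27 °C (adjusted p up to 0.106). AT1G47400, which lies among the uptake genes of the list, had 6.06, 5.72 and 5.61 scaled CPM at 27 °C and 2.21, 2.48 and 2.62 at 21 °C (1.104 ± 0.31, adjusted p = 0.0128). The groups did not overlap in FER3 or AT1G47400. BHLH39 and BHLH38, factors induced by iron shortage, rose by 1.47 ± 0.41 and 1.68 ± 0.51, with calls that ended without replicate 2 at 21 °C or replicate 1 at 27 °C (adjusted p up to 0.0673 and 0.117), for BHLH38 also without replicate 1 at 21 °C or 2 at 27 °C. BHLH101, of the same group, rose by 1.11 ± 0.37 and NAS4, a nicotianamine synthase, fell by 1.01 on the log2 scale, BHLH101 with a call kept only without replicate 1 at 21 °C (adjusted p up to 0.223) and NAS4 with one kept only without replicate 1 at either temperature (up to 0.177). The ferric reductase FRO2 and the transporter IRT1, which those factors are known to activate in roots, lay at 0.06 and -0.36 and were not called.

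Stomatal lineage genes all had changes below 0 in the scaled values, the highest at -0.07. Of 14, 2 were called lower, and the median was -0.52. SDD1, a protease that limits stomatal number, had 6.13, 7.39 and 6.33 scaled CPM at 27 °C and 12.6, 15.5 and 11.2 at 21 °C (-0.93 ± 0.19, adjusted p = 0.00475). SCRM2, a partner of the lineage factors, had 29.1, 27.7 and 28.4 scaled CPM at 27 °C and 44.9, 62.7 and 51.6 at 21 °C (-0.88 ± 0.14, adjusted p = 0.00802). The lineage factors SPCH, MUTE and FAMA, at -0.54, -0.64 and -0.17, were not called. Cell division genes stayed close to 0, with a median of -0.11 over 13, and the meristem gene STM, the only call (1.07 ± 0.31), lost it without replicate 3 at 21 °C (adjusted p = 0.162) or replicate 2 at 27 °C (0.0526).

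Markers of other tissues moved as well. The 9 seed storage markers tested summed to 19.9 to 31.1 scaled CPM at 27 °C and 7.49 to 9.65 at 21 °C, with 2 called higher: PER1, a peroxiredoxin of seeds, had 11.2, 12.2 and 8.05 scaled CPM at 27 °C and 2.54, 3.304 and 2.98 at 21 °C (1.66 ± 0.42, adjusted p = 0.00592), and the oil body protein OLEO2 rose by 2.05 ± 0.61, a call that ended without replicate 2 or 3 at either temperature (adjusted p up to 0.0984). The median change of the 9 was nevertheless -0.32, with 4 of them above 0. At 27 °C 7, 7 and 5 of the 9 markers had reads, against 9 in each library at 21 °C. The storage globulins CRU2 and CRU3 were at -0.63 and -0.58 and were not called. Their part in the rises of M17 and RAB18, proteins also known from seeds, was not tested. Of the 7 root markers 2 were called higher and 1 lower, and their median was 0.62. The nitrate transporter NRT2.1 fell (-1.32 ± 0.36, adjusted p = 0.0152), and SHR, a factor of root patterning (0.44 ± 0.14), and ESB1, a dirigent family gene (1.53 ± 0.45, adjusted p = 0.0193), rose, though the reads of ESB1 nearly equal those of an overlapping gene. The call of SHR ended without replicate 2 or 3 at 21 °C or 1 or 3 at 27 °C (adjusted p up to 0.143). Those of NRT2.1 and ESB1 ended without replicate 1 at 21 °C (adjusted p = 0.119 and 0.0636), that of NRT2.1 also without replicate 1 at 27 °C and that of ESB1 without replicate 2 at 21 °C or 2 or 3 at 27 °C. None of 8 root hair markers was called. Their median change was -0.47, and 0.19 without replicate 3 at 21 °C, where that of the root markers was 1.06.

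Calls among genes of microRNA processing and SPL targets stand beside shares over all genes of 8.54% higher and 4.63% lower. Of 13 pathway genes only AGO2 was called higher (0.64 ± 0.18), and without replicate 2 at 21 °C or replicate 1 at 27 °C it was not (adjusted p = 0.0958 and 0.0622). DCL1 had 50.3, 54.6 and 42.3 scaled CPM at 27 °C and 48.8, 60.95 and 42.7 at 21 °C, and AGO1 had 168, 168 and 150 at 27 °C and 175, 190 and 152 at 21 °C. Both pairs of groups overlapped. HYL1 (0.27) and SE (0.02) were not called either. Of 10 SPL genes with a miR156 site, SPL11 was called lower (-0.90 ± 0.22), a call that ended without replicate 2 at 21 °C or replicate 1 or 2 at 27 °C (adjusted p up to 0.124), and SPL9 was at 0.50 ± 0.20 (adjusted p = 0.0763).

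How far this response is that of Col-0 alone was tested as the change in Col-0 minus that in another genotype. The difference was called for 223 genes against pif457 (1.02%), 281 against MIM156 (1.29%) and 908 against hyl1-2 (4.17%). The 1860 genes called higher in Col-0 had a median change of 0.78 there, of 0.45 in pif457, 0.41 in MIM156 and 0.41 in hyl1-2. Of them 80.9 to 86.5% had a change above 0 in the other genotypes, against 49.6 to 51.6% of all genes tested. For the 1008 called lower the medians were -0.93 in Col-0 and -0.59, -0.63 and -0.63 in pif457, MIM156 and hyl1-2. In these 3 genotypes 3.47 to 5.46% of the 1008 had a change above 0. Since these genes were chosen on the Col-0 libraries, their larger change in Col-0 is a description only. Chloroplast-encoded genes took 0.161 to 0.97% of the reads in pif457 at both temperatures, below every Col-0 library, and the part of this in the differences was not tested.

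Against pif457, 8 of the 12 largest rises of Col-0 were called larger in Col-0. These 12 were chosen on the same Col-0 libraries, so this count too is a description only. It includes both genes of the overlapping pair FAR1 and AT5G22505. FAR1 changed by 3.23 ± 0.23 in Col-0 and by 0.45 ± 0.23 in pif457, where it had 8.45, 7.38 and 8.45 scaled CPM at 27 °C and 5.88, 4.502 and 7.22 at 21 °C, a difference of 2.78 ± 0.32 (adjusted p = 3.58e-05). AT5G44440 changed by 3.69 in Col-0 and -0.07 in pif457 (3.76 ± 0.72, adjusted p = 0.00917), or 3.11 without replicate 3 of Col-0 at 21 °C (0.0136). AT5G35525 changed by 2.96 in Col-0 and 0.30 in pif457 (2.66 ± 0.47, adjusted p = 0.00253). In pif457 AT5G44440 had 0.455, 0.746 and 0.837 scaled CPM at 27 °C and 1.23, 0.716 and 0.366 at 21 °C, and these groups overlapped. AT5G37950 was listed at 0 in all 6 pif457 libraries, so that its fitted difference of 3.13 has no level in pif457 to rest on, and it was not called by edgeR or DESeq2 (adjusted p = 1 and 0.154). The differences of AT1G49570, XTH17 and AT1G80130 (adjusted p = 0.0302, 0.0241 and 0.021) were called too. They ended when any 1 of 8, 5 and 5 libraries was left out (adjusted p up to 0.121, 0.0949 and 0.0772), among them replicate 2 of Col-0 at either temperature for all 3 genes. Of the heat genes, the difference was 0.43 ± 0.25 for HSP70 (adjusted p = 0.548), 0.45 ± 0.31 for HSP90.1 (0.659) and 0.79 ± 0.43 for AT5G51440 (0.512), and none of the lists of small heat shock proteins, larger chaperones and heat shock factors held a called difference. Among the 12 largest falls no difference was called, with that of OEP6 at 0.88 ± 0.26 (adjusted p = 0.0814).

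**Figure D4:**
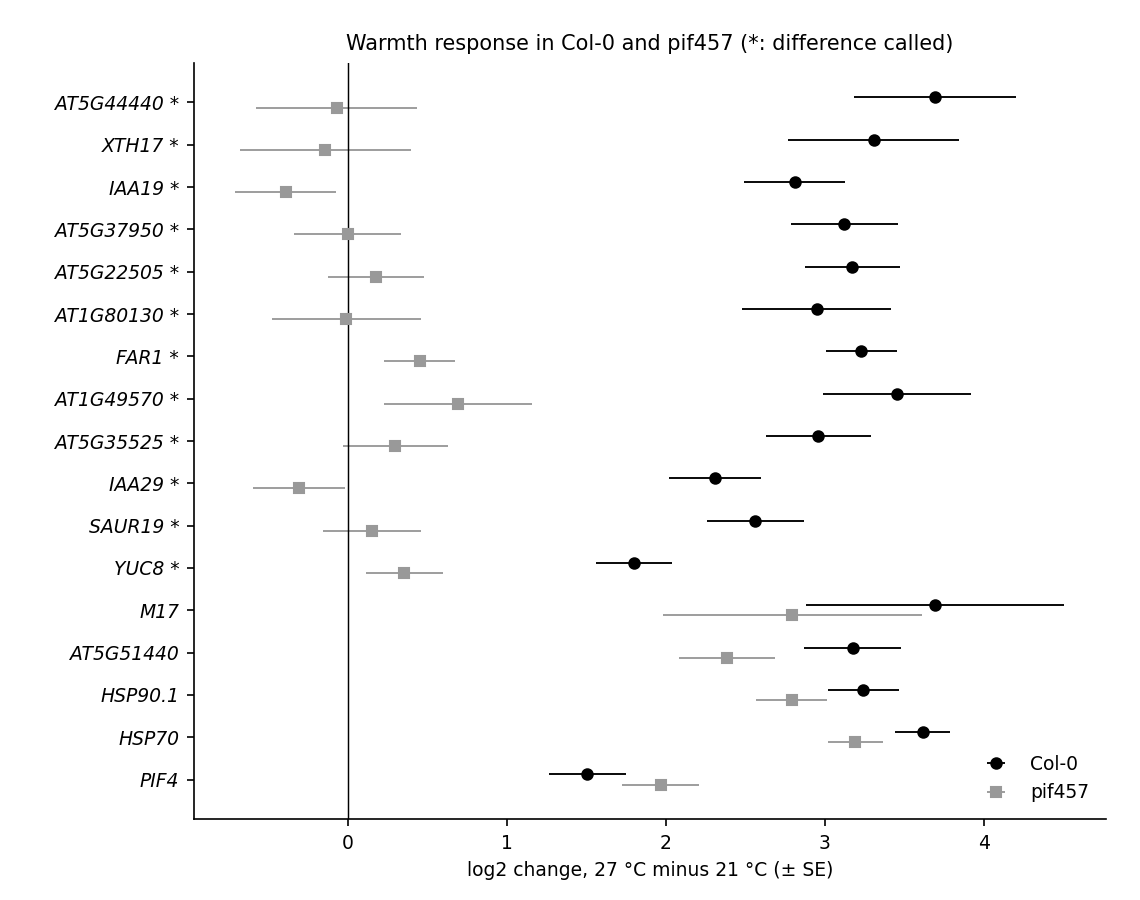
Change at 27 °C minus 21 °C (log2 scale, ± SE of the fit) of the 12 largest rises of Col-0, IAA19, IAA29, SAUR19, YUC8 and PIF4, in Col-0 (black circles) and pif457 (grey squares), with a star where the difference was called. Heat shock genes lie near each other in both genotypes, and the 12 starred genes lie between -0.39 and 0.70 in pif457.

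Auxin genes were among those with a called difference. IAA19 changed by 2.81 ± 0.32 in Col-0 and -0.39 ± 0.32 in pif457 (3.2 ± 0.45, adjusted p = 0.000381), IAA29 by 2.31 and -0.30 (2.61 ± 0.41, adjusted p = 0.000917), and SAUR19 by 2.57 and 0.16 (2.41 ± 0.44, adjusted p = 0.00358). Over the pif457 libraries IAA29 had only 0.114 to 0.823 scaled CPM and SAUR19 0.183 to 0.691, in part near the level of 3 reads. YUC8 changed by 1.80 in Col-0 and 0.36 in pif457 (1.44 ± 0.34, adjusted p = 0.0258), a call that ended when any 1 of 8 libraries was left out, replicates 2 and 3 of Col-0 at both temperatures among them (adjusted p 0.0526 to 0.088). IAA6, WAG2, GH3.3 and BNQ2 were the other list members of auxin and growth factors called larger in Col-0. In MIM156, IAA19 changed by 0.61 and IAA29 by 0.29, and these differences from Col-0 were called too (2.201 ± 0.45, adjusted p = 0.00857, and 2.02 ± 0.41, adjusted p = 0.00833). In hyl1-2 they changed by 2.37 and 2.99, and the differences from Col-0, 0.44 ± 0.45 and -0.68 ± 0.41, were not called.

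PIF4 itself rose less in Col-0 than in hyl1-2, where it had 125, 147 and 117 scaled CPM at 27 °C and 15.1, 18.7 and 12.9 at 21 °C. It changed by 1.51 ± 0.24 in Col-0 and by 3.03 ± 0.24 in hyl1-2, a difference of -1.52 ± 0.34 (adjusted p = 0.0108). XTH17 changed by 3.31 in Col-0 and 0.23 in hyl1-2 (3.07 ± 0.76, adjusted p = 0.0367), but that call ended without any 1 of 11 libraries, all but replicate 3 of Col-0 at 21 °C (adjusted p 0.0531 to 0.0967). AT1G29720 fell further in Col-0 (-3.47) than in MIM156 (-1.16), a difference of -2.32 ± 0.47 (adjusted p = 0.00857). FAR1 changed by 3.23 ± 0.23 in Col-0 and by 3.09 ± 0.23 in hyl1-2, a difference of 0.14 ± 0.32 that was not called (adjusted p = 0.841).

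The transcript of PIF4 was counted in pif457 as well, at 56.4, 55.9 and 53.4 scaled CPM at 27 °C and 15.36, 13.8 and 12.2 at 21 °C, with a change of 1.51 in Col-0 and 1.97 in pif457 (difference -0.46, adjusted p = 0.803). Counts over a whole gene do not show whether it is functional, so they are no check of that label.

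The median change of photosynthesis genes had a different sign in some genotypes. Of 40 genes of the photosystem and Calvin cycle list, the median change was -0.43 in Col-0, 0.24 in pif457, -0.99 in MIM156 and 0.00 in hyl1-2. The difference was called negative for 6 genes against pif457 (LHCA4, LHCB2.1, LHCB2.2, LHCB3, LHCB5 and PSAF) and for 4 against hyl1-2 (LHCB3, LHCB5, PSAN and PSBP-1), and positive for 4 against MIM156 (LHCA1, LHCA4, LHCB1.2 and LHCB3). Of these only PSAF and PSBP-1 had been called in Col-0 itself. Over all genes tested, differences were called for 1.02% against pif457, 4.17% against hyl1-2 and 1.29% against MIM156. Without replicate 3 of Col-0 at 21 °C, whose sum over this list was low, called differences from hyl1-2 rose from 908 to 1827 genes. The differences of single list members were not examined library by library. Chlorophyll synthesis had a median of -0.66 in Col-0 and -0.05 in hyl1-2, with 7 of 19 differences called negative, among them CHLH, CHLD and PORA. Chloroplast-encoded genes took 5.28 to 13.1% of the reads of hyl1-2 at 21 °C, and the part of this was not tested.

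Small heat shock proteins had a median change of 1.99 in Col-0, 2.06 in pif457, 0.64 in MIM156 and 0.70 in hyl1-2. The difference was called positive for 2 of 11 against MIM156 (HSP17.6II and AT1G53540) and for 4 against hyl1-2 (these, AT2G29500 and HSP23.6-MITO), and for none against pif457. Over all genes tested, differences in either direction were called for 1.29% against MIM156, 4.17% against hyl1-2 and 1.02% against pif457. In Col-0 at 21 °C, HSP17.6II, AT1G53540 and HSP23.6-MITO had only 0 to 0.295 scaled CPM, around the level of 3 reads. The larger chaperones and heat shock factors held no called difference from hyl1-2. Against MIM156 they held 2, both negative, Hsp70-2 and cpHSC70-2. Among clock genes, 7 of 25 differences from hyl1-2 were called negative, LHY and CCA1 among them. SAUR19 was the only SAUR gene with a called difference from pif457 or MIM156, and from MIM156 it ended without any of 8 libraries (adjusted p 0.0545 to 0.0996).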

How the data were processed

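Whole seedlings were measured by poly(A) RNA sequencing in 30 libraries, with 3 per group. For each library the authors aligned with STAR 2.7.7a. They then counted uniquely mapped reads over Araport11 genes with featureCounts 2.0.1 (strand setting not given in the sources used here), and used DESeq2 1.35.0. Their deposited table carries the word FPKM, yet it holds CPM: all values were whole multiples of a step per library at a tolerance of 0.001 (100%), which gave whole reads. The study states biological replicates. Same-numbered Col-0 libraries deviated together (r = 0.14, 0.168 and 0.142), so the number may pair them, which is given as a block alternative.

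CPM were scaled by median-of-ratios factors over 30 libraries. Genes reaching 1 CPM in 3 or more libraries were tested with limma 3.58.1 (trend and robust) on log2(scaled CPM + 0.5), with 1 mean per group. A call needed a Benjamini-Hochberg adjusted p under 0.05 here and with the deposited totals, with the same sign. The 39 gene lists held 681 genes, of which 637 were tested. Members and lists were chosen with earlier results of these data known. Named genes were the 12 called rises and falls of largest size at 5 or more scaled CPM without overlap, up to 5 called members per list without overlap (the most abundant where none was called), and genes named by the genotypes or the study; other list members were named after their values had been seen. Of the genes, 25076 matched TAIR10.1 (RefSeq), which names them; 32.8% of placed tested genes overlap another. Alternatives were other pseudocounts (0.1 and 2), filters, scalings and thresholds, DESeq2 1.42.0 and edgeR 4.0.16 with the recovered reads, the compared groups alone, a replicate block, leaving out each library, and, after seeing the data, nuclear genes alone. The procedure was tested on simulated data.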

Additional observations from a re-analysis of the deposited data

Results flagged for a closer look

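Responses of named genes that differed between Col-0 and another genotype by the test of the difference itself, in limma with adjustment over all genes, are listed here with the change in Col-0 minus that in the other genotype on the log2 scale. Against pif457 these were AT5G44440 (3.76), XTH17 (3.45), IAA19 (3.2), AT5G37950 (3.13), AT5G22505 (2.996), AT1G80130 (2.96), FAR1 (2.78), AT1G49570 (2.76), AT5G35525 (2.66), IAA29 (2.61), SAUR19 (2.41) and YUC8 (1.44). Against MIM156 they were AT1G49570 (3.27), IAA19 (2.201), AT5G35525 (2.17), IAA29 (2.02), SAUR19 (1.81) and, with the larger fall in Col-0, AT1G29720 (-2.32). Against hyl1-2 they were AT1G49570 (3.29), XTH17 (3.07) and PIF4 (-1.52). In hyl1-2 AT1G49570 had 0.40, 0.14 and 0.08 scaled CPM at 27 °C and 0.13, 0.125 and 0.11 at 21 °C. These levels lie around that of 3 reads, so its difference from hyl1-2 rests on hardly any reads there. With edgeR and DESeq2 the difference of AT1G49570 was not called against any of the 3 genotypes (adjusted p 0.0549 to 0.336), nor was that of AT1G80130 against pif457 (0.081 and 0.0592). Neither tool called the difference of SAUR19 from MIM156 (0.424 and 0.35) or that of AT5G37950 from pif457 (1 and 0.154). The differences of IAA29 and AT5G35525 from MIM156 were not called by edgeR (0.0944 and 0.0553) and were called by DESeq2 (0.0221 and 0.00767). Groups of 3 libraries were too small for a search for outlying samples.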

How the results depend on the processing

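The Col-0 counts were 1860 rises and 1008 falls. Under the deposited totals alone 5458 were called higher and 1008 lower. With median-of-ratios scaling alone 1860 were called higher and 2108 lower, so that falls were then more numerous than rises. With a 2-fold minimum, 589 and 388 remained. The compared groups alone gave 1419 and 811, edgeR 1868 and 1041, and DESeq2 1959 and 1084. Leaving out each library gave 1159 to 1667 higher, the lowest without replicate 3 at 27 °C, and 767 to 945 lower. With the replicate block, which the paired numbers allow, 2312 and 1175 were called.

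The difference from pif457 was called for 223 genes, for 606 with the deposited totals, 386 with the replicate block and 340 with DESeq2. Leaving out libraries gave 105 to 285, and under 149 without replicate 2 at 21 °C (107) or 1 or 2 at 27 °C of Col-0 (141 and 123), or replicate 3 at 21 °C (105) or 1 or 3 at 27 °C of pif457 (118 and 117). The difference from MIM156 was called for 281 genes, for 510 with the replicate block, 457 with DESeq2, 104 with the compared groups alone and 167 at 2-fold or more; leaving out libraries gave 136 (replicate 2 of Col-0 at 27 °C) to 445 (replicate 2 of MIM156 at 21 °C). That from hyl1-2 was called for 908 genes, for 1472 with median-of-ratios scaling alone, 1947 with the replicate block and 536 at 2-fold or more; leaving out libraries gave 365 (replicate 1 of hyl1-2 at 27 °C) to 1827 (replicate 3 of Col-0 at 21 °C). The cause of these moves was not tested. Same-numbered libraries had r = 0.408, 0.051 and 0.293 in pif457, and 0.095, 0.007 and 0.167 in hyl1-2. In MIM156 they had -0.074, -0.065 and 0.13. These values were less even than in Col-0, so the block is less sure there. With the block the differences of OEP6 from pif457 (adjusted p = 0.0327) and HSP70 from hyl1-2 (0.0363) were also called.

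Of 149 named called genes, 105 kept their call under every alternative in which they were tested, the 2-fold minimum aside, which was not applied to single genes. The filter at 5 CPM left 130 of the 149 and the fit of nuclear genes 142, and none of the 149 reversed. Changes near 0 that turned sign, all without a call, were DCL1 (0.24 with the deposited totals, 0.10 without replicate 2 at 21 °C, 0.06 without replicate 3 at 27 °C), ALAAT1 (0.11), AGO1 (0.20), PHYB (0.006) and CYP83B1 (0.038) with the deposited totals, and SE (-0.08) and PRP3 (0.49) without replicate 3 at 21 °C. Leaving out each library gave -0.159 to 0.10 for DCL1, -0.076 to 0.076 for SE and -1.41 to 0.49 for PRP3. At 19.6 to 23.9 M reads, genes around 0.177 scaled CPM rest on about 3 reads.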

Other observations

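Some annotated gene families were counted once the values had been seen, so they are descriptions only. Beside them stand the shares over all genes tested, 8.54% called higher and 4.63% called lower. Of 26 genes annotated as HSP20-like chaperones, some of them in the small heat shock protein list, 9 were called higher and 1 lower at 27 °C. Of 108 annotated as DnaJ or Hsp40, which include co-chaperones of the lists, 12 were called higher and 9 lower. Of 55 kelch repeat proteins 15 were called higher and none lower, of 32 EF-hand calcium-binding proteins 10 and none, and of 204 RING/U-box proteins 33 and none. Of 64 late embryogenesis abundant proteins, 11 were called higher and none lower. Among falls, 7 of 13 FKBP-like isomerases and 5 of 10 plastid-lipid associated fibrillins, which coat lipid bodies of the plastid, were called lower and none higher.

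B-box zinc finger genes, regulators of light responses, moved in both directions. BBX16 had 23.58, 38.8 and 35.9 scaled CPM at 27 °C and 21.4, 14.6 and 12.4 at 21 °C (1.01 ± 0.20, adjusted p = 0.00038 in limma), and BBX19 had 3.86, 2.77 and 2.67 at 27 °C and 5.85, 6.20 and 8.46 at 21 °C (-1.03 ± 0.18, adjusted p = 0.00671), which was not called without replicate 3 at 21 °C (adjusted p = 0.0575). CYP86A1 (0.25) and GPAT5 (0.00), enzymes of suberin like FAR1, were not called.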
